A study of Homo sapiens with 3 samples.

Results

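The neutrophil-attracting CXC chemokines CXCL1, CXCL2, CXCL3, CXCL5, CXCL6, CXCL8, PPBP, and PF4 were read on arrays from THP-1 macrophages. A probe was taken when it was no control and its gene name was one of these 8 genes. This gave all 8 genes of 41810 gene names on the array and 10 probes of 58201 transcript probes, 2 each for CXCL1 and CXCL2 and 1 for each other gene. The rule used the gene names and no intensity, but the 8 genes were listed with earlier results of these data known.

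THP-1 is a line of human monocytic leukemia cells that become macrophage-like under the phorbol ester PMA. Cells of all groups received PMA at 100 ng/mL for 24 to 36 h and then rested overnight. The groups were untreated macrophages (Ctrl), macrophages stimulated with imiquimod (IMQ), a small-molecule agonist of toll-like receptors, and macrophages pretreated with DMD before IMQ (IMQ+DMD). DMD is a dimethoxy-methylbenzenediol isolated from the mushroom Antrodia cinnamomea. The third array is labeled IMQ plus X, and X was read as DMD because the series title and the treatment protocol in the labels name no other compound beside IMQ, although other experiments of the study used further agents. Its direction in every comparison below rests on that reading. The labels give 4 h for all arrays and no dose of IMQ or DMD, while the general methods of the study give a longer IMQ incubation. Each group had 1 array, so no p-value or spread between cultures could be had, and array and treatment cannot be told apart.

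CXC chemokines are small secreted proteins. Those with a glutamate-leucine-arginine motif before the first cysteines, such as CXCL1 and CXCL8, bind CXCR1 and CXCR2 on neutrophils and draw these cells toward inflamed tissue, including psoriatic skin. Their genes sit side by side on chromosome 4, and many are switched on by NF-κB when macrophages sense microbial products through toll-like receptors. PPBP and PF4 are stored mainly in platelet granules. PF4 lacks the motif.

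The promoter stretches around the κB motif are shown first, because the raised and the unraised genes can be set beside them. The windows are those of RefSeq on GRCh38.p14, from 250 bases before to 50 bases after each gene's start, and 7 of the 8 genes matched. PF4 had no window, so the promoter results do not cover it. The letters GGGAATTTCC were searched on both strands, together with the contained GGAATTTCC. Each line gives 80 bases read 5′ to 3′ on the strand of the gene, all before the start, with the match in capitals.
CXCL1: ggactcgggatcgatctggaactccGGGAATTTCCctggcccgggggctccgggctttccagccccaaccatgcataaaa
CXCL2: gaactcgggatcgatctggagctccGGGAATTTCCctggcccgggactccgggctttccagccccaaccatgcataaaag
CXCL3: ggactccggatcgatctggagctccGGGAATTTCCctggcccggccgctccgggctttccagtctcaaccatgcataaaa
CXCL6: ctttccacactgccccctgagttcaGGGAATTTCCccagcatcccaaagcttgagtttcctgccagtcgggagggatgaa
CXCL8: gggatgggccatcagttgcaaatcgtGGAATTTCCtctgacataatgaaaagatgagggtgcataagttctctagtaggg
CXCL5: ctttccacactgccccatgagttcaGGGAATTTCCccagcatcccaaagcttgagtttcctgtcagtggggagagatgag

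These stretches lie at chr4:73869289-73869368 on the plus strand for CXCL1, chr4:74099219-74099298 on the minus strand for CXCL2, and chr4:74038714-74038793 on the minus strand for CXCL3. Those of CXCL6 and CXCL8 lie at chr4:73836563-73836642 and chr4:73740452-73740531 on the plus strand, and that of CXCL5 at chr4:73998714-73998793 on the minus strand. The longer letters were found in the windows of CXCL1, CXCL2, CXCL3, CXCL5, and CXCL6, where they began 78 to 91 bases before the start. The CXCL8 window held only the 9 shorter letters, 91 bases before the start, and the PPBP window held neither. Over all 35116 windows of the same length, 0.145% held the longer letters and 0.461% the shorter ones. The AP-1 letters TGANTCA were found in 7.71% of all windows and, among the members, only in that of CXCL8. The 250 bases before the start were 85.6% identical between CXCL5 and CXCL6 and 75.6% to 84.0% identical among CXCL1, CXCL2, and CXCL3. No other pair of members exceeded 56.4%.

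IMQ raised 5 of the 8 genes, CXCL1, CXCL2, CXCL3, CXCL6, and CXCL8, and the other three stayed within 2-fold of Ctrl. A probe counted as raised or lowered at 2-fold or more where it was well above background on the brighter array. By this rule 7 of the 10 member probes were raised after IMQ, against 1771 of 41105 probes compared, or 4.31%. None of the 10 was lowered, against 3.48% of all probes. In the deposited normalization the raised probes ranged from at least 22.1-fold to 179-fold. The lower end is that of CXCL6, which was at 2.50 on the log2 scale after normexp background correction. The 7 raised chemokine probes held ranks 1, 3, 4, 5, 8, 31, and 38 among all probes ordered by their rise. In bulk RNA, a larger share of responding cells and more RNA in each cell cannot be told apart.

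CXCL2, a chemokine made by activated macrophages, read at its first probe a normalized intensity of 103.3 on Ctrl, 18506 on IMQ, and 18550.0 on IMQ+DMD. Both treated arrays were far above Ctrl and nearly equal to each other. The rise after IMQ was 7.48 on the log2 scale, or 179-fold, with a technical SD of 0.17. This SD combines the spread of repeated spots within both arrays at the same brightness. It holds no variation between cultures or between separately hybridized arrays. The IMQ+DMD array stood 0.00 above IMQ on the log2 scale, with a technical SD of 0.06.

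The second CXCL2 probe read 175.4 on Ctrl, 11599 on IMQ, and 11076 on IMQ+DMD. Its rise was smaller than that of the first probe, at 6.05 on the log2 scale or 66.1-fold, and it again changed little with DMD, at -0.07. The array design assigns this probe to transcripts of both CXCL2 and CXCL3. Its values may therefore mix the 2 genes. It also shares a stretch with the second CXCL1 probe, and both are printed here with the differing bases of the shared stretch in capitals.
CXCL1 second probe: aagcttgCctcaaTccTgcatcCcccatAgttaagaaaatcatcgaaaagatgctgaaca
CXCL2 second probe: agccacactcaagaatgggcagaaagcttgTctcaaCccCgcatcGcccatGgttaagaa

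On hg19, the build of the array design, these 60-base probes lie in chr4:74735646-74735705 on the plus strand and chr4:74964342-74964401 on the minus strand. Each runs without a gap along the genome and so lies within a single exon, in the coding part of the transcript. In their overlap of 37 bases, 32 were identical and 5 differed. No other pair of member probes held more than 26 identical bases at any ungapped offset. Whether RNA of one gene bound the probe of the other was not tested.

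CXCL1, the founding GRO chemokine, read 274.1 on Ctrl, 31206 on IMQ, and 27428 on IMQ+DMD at its first probe. The rise was 6.83 on the log2 scale, or 114-fold, and the value on IMQ+DMD was 1.14-fold lower than on IMQ, at -0.19 with a technical SD of 0.06. At the second probe, the intensities were 220.9, 5978, and 5661 in the same order. Both probes were thus high on the treated arrays and low on Ctrl, but the second rose less, by 4.76 on the log2 scale or 27.1-fold.

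CXCL3, the third GRO chemokine, read 49.0 on Ctrl, 6781 on IMQ, and 5323 on IMQ+DMD. The rise was 7.11 on the log2 scale, or 138-fold. Its Ctrl value is dim, and the technical SD of this difference was 0.22. The IMQ+DMD value was 1.27-fold lower than IMQ, at -0.35 on the log2 scale with a technical SD of 0.06. This is within the 2-fold limit and larger than the spread of repeated spots within an array. The scanner's own error was wider, at 634 for a processed signal of 6340 on IMQ and 460 for 4601 on IMQ+DMD. The spread between arrays was not measured.

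CXCL8, also called IL-8, a strong ligand of both neutrophil receptors, read 315.4 on Ctrl, 22531 on IMQ, and 23908 on IMQ+DMD. The rise was 6.16 on the log2 scale, or 71.4-fold. CXCL8 was the only raised gene with its highest value on the IMQ+DMD array by more than 0.05 on the log2 scale, at 0.09 above IMQ with a technical SD of 0.06. A further probe on chromosome 4, described in the file as interleukin 8 but named by a cluster number, was chosen after its values were seen. It read 35.8, 685.0, and 721.5 on Ctrl, IMQ, and IMQ+DMD, and its differences were 4.26 after IMQ and 0.07 between IMQ+DMD and IMQ.

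CXCL6, a ligand that acts on neutrophils through the same receptors, read 15.8 on Ctrl, where it was not well above background, 364.4 on IMQ, and 239.4 on IMQ+DMD. The lowest intensity of probes well above background on Ctrl was 16.5. Against it, CXCL6 was at least 22.1-fold higher after IMQ and at least 14.5-fold higher after IMQ+DMD. These bounds hold for the deposited normalization, and normexp background correction gave 2.50 and 1.96 on the log2 scale. Among the raised members the IMQ+DMD value of CXCL6 stood furthest below IMQ, 1.52-fold lower or -0.61 on the log2 scale, with a technical SD of 0.12. In the deposited normalization CXCL6 was the only member whose difference between these arrays passed 1.5-fold. It was within that limit when scaled to the 75th percentile, at -0.56, and unnormalized, at -0.50. The same held with spike-in scaling, at -0.35, and after normexp background correction, at -0.54. With spike-in scaling PF4 was past the limit in the other direction, at 0.65.

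CXCL5, a neutrophil chemokine best known from epithelial cells and platelets, read 801.5 on Ctrl, 1039 on IMQ, and 837.0 on IMQ+DMD. It was 1.3-fold higher after IMQ, at 0.37 on the log2 scale with a technical SD of 0.07, and differed from Ctrl by 0.06 after IMQ+DMD. The 3 values lie close together although the gene's promoter window holds the same κB letters as that of CXCL6. PPBP, the precursor of the platelet chemokine NAP-2, read 256.6, 381.8, and 318.6 on Ctrl, IMQ, and IMQ+DMD. It was 1.49-fold higher after IMQ, at 0.57 on the log2 scale. PF4, a platelet chemokine that inhibits vessel growth, read 55.7, 62.0, and 70.4, and its difference of 0.15 after IMQ was smaller than its technical SD of 0.27. These small differences depended on the scaling. Scaled to the spike-in probes, the differences after IMQ turned below 0 for CXCL5, at -0.11, and for PF4, at -0.56, and PPBP stayed above 0 at 0.03.

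**Figure D1:**
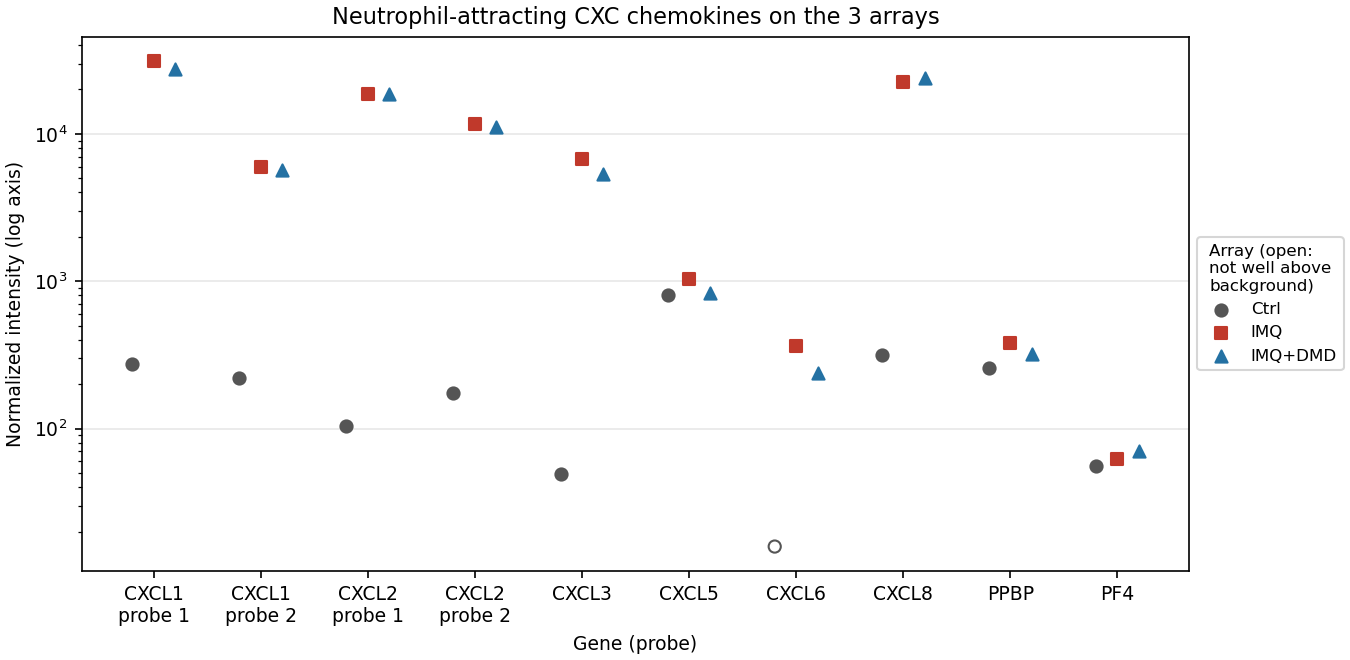
Normalized intensity on a log axis of each of the 10 probes on the Ctrl (circles), IMQ (squares), and IMQ+DMD (triangles) arrays, with 1 array per group and so no error bars. For the 7 raised probes both treated arrays lie close together and far above Ctrl, while CXCL5, PPBP, and PF4 have all 3 values within 2-fold.

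In the order of protein-coding genes along chromosome 4, the stretch from CXCL8 to CXCL2 holds 9 genes, of which 8 are the members and the ninth is PF4V1, a copy of PF4 that was not well above background on any array. The unraised members PF4, PPBP, and CXCL5 are neighbours in the middle, with raised members on both sides. Of 11 genes fixed as the surroundings of this cluster, 8 could be compared. Of these, AREG and EREG, ligands of the EGF receptor, were raised after IMQ, AREG by 3.33 on the log2 scale and EREG by at least 3.79. EREG was not well above background on Ctrl, and after normexp background correction it was at 1.87. MTHFD2L, an enzyme of mitochondrial folate metabolism and the next gene beyond CXCL2, was at 0.98 after IMQ and at 1.67 after IMQ+DMD against Ctrl. The other five, ANKRD17, ALB, RASSF6, BTC, and PARM1, lay between 0.07 and 0.62 after IMQ.

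**Figure D2:**
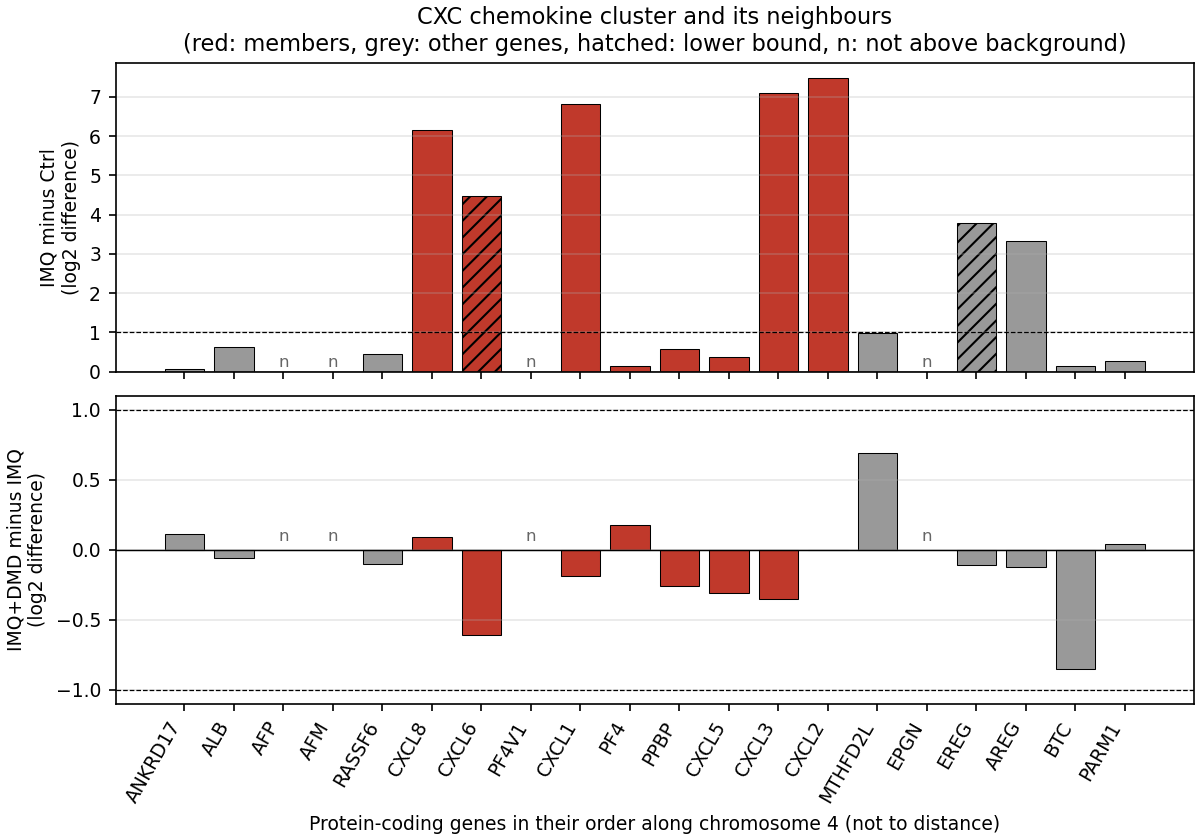
Log2 difference of IMQ minus Ctrl (upper panel) and of IMQ+DMD minus IMQ (lower panel) for the protein-coding genes in their order along chromosome 4, by the brightest probe of each gene, with dashed lines at 2-fold. Members are red and other genes grey, hatched bars are lower bounds, and n marks genes not above background. The raised genes stand on both sides of PF4, PPBP, and CXCL5, and no bar in the lower panel reaches 2-fold.

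With DMD before IMQ, 0 of the 10 member probes were lowered by 2-fold or more, against 1.31% of 40826 probes compared, and 0 were raised, against 1.09%. The differences of the 7 raised probes lay between -0.61 and 0.09 on the log2 scale, and 5 of them were below 0. Against Ctrl, the same 7 of 10 probes were still at least 2-fold higher on the IMQ+DMD array, where 3.09% of 43689 probes were, and none was lower, against 4.91%. The comparisons share arrays, so these counts are not independent.

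The rise that remained after IMQ+DMD was taken as the log2 difference from Ctrl in percent of that after IMQ alone. It was 97.3% and 98.3% at the 2 CXCL1 probes, 100% and 98.9% at the CXCL2 probes, 95.1% for CXCL3, 101% for CXCL8, and, by the bounds, 86.4% for CXCL6. Over all 1771 raised probes, which include far smaller rises, the median was 75.7%. These probes were picked by their IMQ value, which also enters this percentage and the difference between IMQ+DMD and IMQ. Their medians are therefore no independent standard for the members. For the same log2 drop, a larger rise leaves a higher percentage. The median difference between IMQ+DMD and IMQ over these 1771 probes was -0.39. It was -0.35 for CXCL3, -0.61 for CXCL6, and from -0.19 to 0.09 for the other raised member probes. On the linear scale of intensity, 106% of the rise remained for CXCL8, 78.4% for CXCL3, and 64.1% for CXCL6, and the median over all raised probes was 64.2%. Thus CXCL6 was close to that median on the linear scale, and the other raised members were above it.

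Strongly raised probes were also set beside each other. There were 35 probes of other genes that rose at least 16-fold and were well above background on all arrays, a limit chosen after the values were seen. These probes too were picked by their IMQ value. Their median difference between IMQ+DMD and IMQ was -0.45, ranging from -2.67 to 0.39, and 5 were lowered by 2-fold or more. Of these 35, only 1 had a higher difference than CXCL8, 2 than the first CXCL2 probe, 9 than the first CXCL1 probe, and 12 than CXCL3. CXCL6 was not ranked, because it was not well above background on Ctrl. Its difference of -0.61 lay below the median of the 35. The median remaining rise of the 35 was 91.6%.

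**Figure D3:**
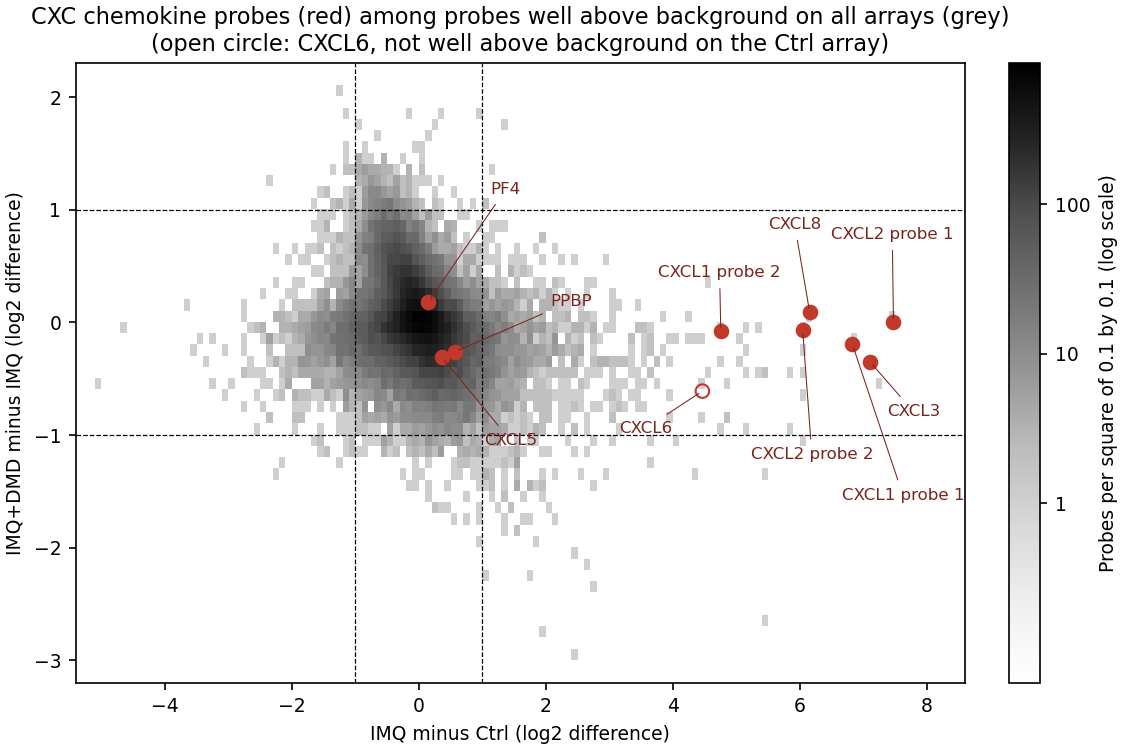
Log2 difference of IMQ minus Ctrl (horizontal) against IMQ+DMD minus IMQ (vertical), which share the IMQ array. Grey squares give the number of probes well above background on all arrays, red points are the member probes, the open circle is CXCL6 (a lower bound on the horizontal axis), and dashed lines mark 2-fold. The raised members lie at the far right and between -0.61 and 0.09 on the vertical axis.

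The scaling of the arrays moved these small differences. Without normalization, the median of the probes well above background on all arrays shifted by -0.49 between IMQ and Ctrl, and with spike-in scaling by -0.58. Between IMQ+DMD and IMQ the shift was 0.18 with spike-in scaling and 0.04 without normalization. Scaled to the 75th percentile, all 7 raised member probes were below 0 in IMQ+DMD against IMQ, from -0.56 to -0.12, so that CXCL8 was at -0.12 and the first CXCL2 probe at -0.19. With spike-in scaling 5 of 7 were below 0, from -0.35 to 0.09. After subtraction of the shift of all probes, the 7 differences lay between -0.54 and -0.09 on the unnormalized scale. The 75th percentile and spike-in scales differ from it only by a constant per array, so they must give the same values. After the same subtraction the range was -0.59 to 0.10 in the deposited normalization and -0.53 to 0.11 with normexp. None reached 2-fold under any of the scalings. Against Ctrl, all 7 probes stayed higher on both treated arrays under every scaling. The smallest differences were those of CXCL6 after normexp background correction, at 2.50 for IMQ and 1.96 for IMQ+DMD.

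**Figure D4:**
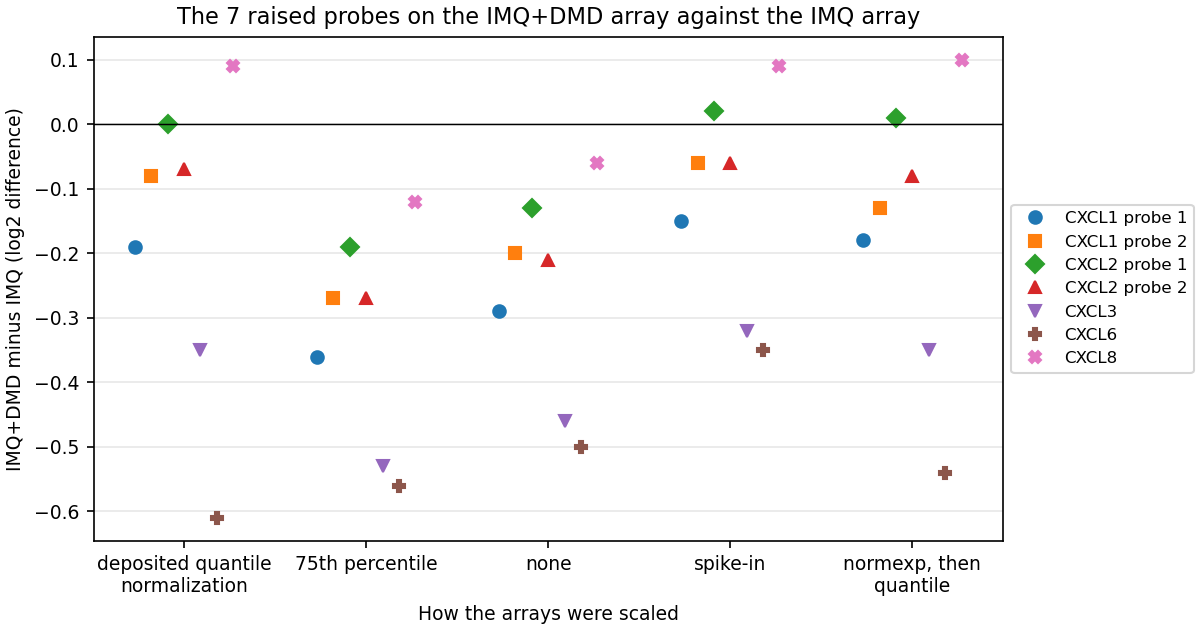
Log2 difference of IMQ+DMD minus IMQ for the 7 raised member probes under 5 ways to scale the arrays. CXCL8 and the first CXCL2 probe lie at or above 0 in the deposited normalization, with spike-in scaling, and with normexp, and below 0 in the others. Both CXCL1 probes, the second CXCL2 probe, CXCL3, and CXCL6 lie below 0 in all 5.

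No member spot was saturated or marked as an outlier by the scanner software. The evenness of the spots was compared with that of other spots on the same array within 1.5-fold of their brightness. At the first CXCL2 probe the SD of the pixels was 17.0% to 23.4% of their mean, and 90.8% to 94.8% of like spots were more even. At the first CXCL1 probe 82.3% to 88.8% of like spots were more even, and at the PF4 probe 75.4% to 84.0%. The second CXCL2 probe was more even than this, with 19.1% and 23.6% of like spots more even on the treated arrays. The part of this unevenness in the difference between probes was not tested.

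The genes around the chemokines were described by fixed lists, with 1 probe per gene. The members' median difference after IMQ was 5.31 on the log2 scale, against -0.02 over all 30853 named genes compared, of which 4.18% were at least 2-fold higher and 3.64% at least 2-fold lower. Between IMQ+DMD and IMQ the members' median was -0.22 against 0.00, where 1.23% of genes were at least 2-fold lower and 1.18% higher. Against Ctrl, 5 of the 8 members were at least 2-fold higher on the IMQ+DMD array, with a median of 5.05, where 3.07% of genes were higher and 4.91% lower. In the comparison of IMQ+DMD with IMQ, no gene of the members or of the receptor, CXC, NF-κB, mRNA stability, and neighbour lists reached 2-fold. That holds for the deposited normalization. CXCL17 was at 0.91 there, but at 1.15 scaled to the 75th percentile, 1.22 unnormalized, and 1.36 with spike-in scaling.

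Among the receptors, CXCR2, which binds the neutrophil-attracting CXC chemokines other than PF4, read 246.7 on Ctrl, 65.1 on IMQ, and 53.7 on IMQ+DMD. It was lower on both treated arrays, by -1.92 on the log2 scale after IMQ and by -2.20 after IMQ+DMD against Ctrl, and the difference after IMQ stayed between -2.62 and -1.28 under all scalings. CXCR1, which binds chiefly CXCL6 and CXCL8, was at -0.13 and ACKR1, a decoy receptor of red blood cells and vessels that takes up chemokines without signaling, at 0.20.

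The other CXC chemokines went different ways after IMQ. Of 9 genes, 7 could be compared, with 2 raised, 2 lowered, and a median of -0.56. CXCL9 and CXCL10, interferon-induced ligands of CXCR3 that attract T cells, fell by 1.54 and 1.1 on the log2 scale. CXCL9 read 83.0, 28.5, and 37.6 on Ctrl, IMQ, and IMQ+DMD, and the IMQ value is near the lowest intensity above background there, 23.8. After normexp correction both falls were within 2-fold, at -0.71 and -0.67. CXCL11, the third ligand of CXCR3, was at -0.63.

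CXCL12, a homeostatic ligand of CXCR4, rose by 3.51 at its brightest probe, from 345.3 on Ctrl to 3923 on IMQ and 3883 on IMQ+DMD. Its 4 probes disagreed, with 3.51, 3.86, 0.66, and 0.60 after IMQ. CXCL14, a chemokine found in skin epithelium, was at 1.18, which fell within 2-fold with spike-in scaling, at 0.60. CXCL16, a membrane-bound ligand of CXCR6, was at 0.51 by its brightest probe and at 1.20 by its other probe. CXCL17, a mucosal chemokine, was at -0.56, and CXCL13, which attracts B cells, was not well above background on any array, like PF4V1.

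Of the NF-κB subunits and inhibitors, 8 of 11 were raised after IMQ, with a median of 1.84. The largest rises were those of BCL3, a nuclear partner of NF-κB dimers, by 3.96, and of NFKBIA, the inhibitor that holds NF-κB in the cytoplasm, by 3.54. REL rose by 2.57, NFKBIZ, a nuclear coactivator, by 2.44, and TNFAIP3, which removes ubiquitin to end signaling, by 1.93. RELB, NFKB1, and NFKB2 rose by 1.84, 1.54, and 1.5, of which NFKB2 was at 0.99 with spike-in scaling. RELA, the subunit phosphorylated on activation, was at 0.21. Between IMQ+DMD and IMQ the list's median was -0.14, with a range from -0.62 for NFKBIZ to 0.12 for TNFAIP3.

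Many chemokine transcripts carry AU-rich elements, and RNA-binding proteins set how long such transcripts last. Of 7 regulators of cytokine mRNA stability, 2 were raised after IMQ and none was lowered, with a median of -0.05. ZC3H12A, an RNase that cleaves cytokine transcripts at stem-loops, rose by 2.77, and ZFP36, which binds AU-rich elements and recruits the deadenylation machinery, by 1.32, the latter within 2-fold at 0.89 with spike-in scaling. ZFP36L1, HNRNPD, KHSRP, ZFP36L2, and ELAVL1, which stabilizes AU-rich transcripts, lay between -0.52 and 0.07 by their brightest probes. The other probes of HNRNPD, ZFP36L1, and KHSRP were at -0.75, -0.61, and 0.22. Between IMQ+DMD and IMQ the value furthest from 0 in this list was that of KHSRP, at -0.71 by its brightest probe and -0.32 by its other probe.

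The promoter letters were also looked up in other genes. Of the genes other than members whose window held GGGAATTTCC, 23 could be compared on the arrays, and 6 of them, or 26.1%, were at least 2-fold higher after IMQ, against 4.26% of 13591 genes with a window. Their median difference was 0.56. Between IMQ+DMD and IMQ, 0 of these 23 were lowered by 2-fold, against 0.893% of genes with a window, and their median was -0.14. With members included, 15 of 72 compared genes with GGAATTTCC, or 20.8%, were at least 2-fold higher after IMQ, with a median of 0.22. This set contains the genes with the longer letters, of which 10 of 28 were raised with members included. It is therefore no separate result. For TGANTCA the share was 7.15% of 1105 genes, with a median of -0.03. A match in these letters is a description and not a measured binding site.

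The genes whose 2 differences, after IMQ and between IMQ+DMD and IMQ, were nearest to those of CXCL8 were sought among 18334 genes well above background on all arrays. The nearest was TNFAIP6, a secreted hyaluronan-binding protein, with 6.08 and -0.20 and a distance of 0.30 log2 units. CCL4L2, a near-identical copy of CCL4 whose probe may not separate them, followed with 6.01 and -0.45 at a distance of 0.56. CXCL1 was the third, at 0.73. CCL20, which attracts CCR6-bearing T cells and dendritic cells, had 6.0 and -0.67, and NR4A3, an orphan nuclear receptor, 5.50 and -0.41. The likeness rests on 3 arrays.

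The macrophage label was checked with fixed markers. Of 8 macrophage and monocyte markers, 6 were matched by name, and all 6 were well above background on every array, with a summed normalized intensity from 430000 to 531000. Of the 5 neutrophil markers matched, 3 were above background, with sums from 3510 to 3700, and CEACAM8 and LCN2 were not above background on any array. Of the 5 platelet and megakaryocyte markers, 4 were above background, with sums from 741 to 979, and the collagen receptor GP6 was not. The 3 T cell markers, with sums from 592 to 697, were above background on every array. So were the 3 B cell markers, with sums from 3800 to 4670. The neutrophil, platelet, T cell, B cell, and epithelial sums were lowest on IMQ. The macrophage sum and the fibroblast and endothelial sum were lowest on IMQ+DMD. Of 3 epithelial markers, 1 or 2 were above background, with sums from 1610 to 1910 and EPCAM below on every array. Of 4 fibroblast and endothelial markers, 3 were above background, with sums from 4300 to 5810 and COL3A1 below on every array. Most of the neutrophil sum came from ELANE (2274 to 2569) and most of the B cell sum from CD79A (3424 to 4148). Most of the epithelial sum came from KRT8 (1573 to 1852) and most of the fibroblast and endothelial sum from PECAM1 (3917 to 5361). The part of all these marker lists in the results was not tested. Of all transcript probes, 66.6% were well above background on IMQ, 71.9% on IMQ+DMD, and 72.0% on Ctrl.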

How the data were processed

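Cy3-labeled RNA was hybridized to 1 one-color oligonucleotide array per group. The authors deposited the scanner output of each array (Feature Extraction 10.5.1.1, design on hg19) and a table of raw and quantile-normalized intensity per probe, which was used here. Its raw intensity was equal within 0.1% to the scanner's processed signal for all 57901 single-spot probes, and 0 columns of values were left unused. Normalized intensities were converted to log2. Where a probe was dim on an array, its value was raised to the lowest of the probes marked well above background there, unless it was higher already. Probes were compared where well above background on the brighter array, and called at 2-fold. No test was run with 1 array per group, and the number of arrays sets the precision. Technical SDs came from 300 probes with 10 spots each, by brightness.

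A gene was represented by its probe with the highest mean log2 intensity. Named genes were the members, the genes of the lists (receptors, other CXC chemokines, NF-κB subunits and inhibitors, regulators of cytokine mRNA stability, cluster neighbours, cell type markers), and the 5 genes nearest to CXCL8 by Euclidean distance of both differences. The members and lists were chosen with earlier results of these data known. Promoter windows and the gene order came from RefSeq on GRCh38.p14. The alternatives were the 75th percentile as the scale, unnormalized signals, 8 of 10 spike-in probes as the scale, quantile normalization without outlier-marked spots, normexp with an offset of 50, other filters and thresholds, and the mean of all probes. Python 3.11.15, numpy 2.4.6, pandas 2.3.3, matplotlib 3.10.9, R 4.3.3, and limma 3.58.1 were used, and the calling of changed probes was tested on simulated data.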

Additional observations from a re-analysis of the deposited data

How the results depend on the processing

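No paired analysis was possible because each group has 1 array. The count of raised member probes after IMQ was 7 under every scaling and threshold and 6, without CXCL6, when both arrays had to be well above background. The members' median of 5.31 became 4.90 when unnormalized, 4.81 when scaled to spike-ins, 4.19 after normexp, and 5.13 as the mean of all probes. For IMQ+DMD against Ctrl the median of 5.05 became 4.62, 4.68, 3.79, and 4.76 in the same order. For IMQ+DMD against IMQ the median of -0.22 became -0.30 at the 75th percentile and -0.09 with spike-in scaling. In the deposited normalization, 1 member probe, that of CXCL6, was lowered at 1.5-fold. A list median counted as moved beyond 0.05.

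Counts over all probes moved more. After IMQ, the 1771 raised probes were 730 unnormalized, 646 scaled to spike-ins, 729 with normexp, 3751 without a filter, 4602 at 1.5-fold, and 366 at 4-fold, and the 1431 lowered were 6668, 8288, 714, 3853, 4338, and 135. For IMQ+DMD against Ctrl, the 1348 raised were 672, 751, 647, 3059, 4270, and 269, and the 2145 lowered were 4510, 3941, 982, 3828, 5206, and 278. For IMQ+DMD against IMQ, the 445 raised were 1305 at the 75th percentile, 1682 unnormalized, 2820 scaled to spike-ins, 22 after normexp, 2491 without a filter, 287 when well above background on both arrays, 2548 at 1.5-fold, and 6 at 4-fold, and the 533 lowered were 272, 231, 164, 38, 2229, 304, 2440, and 40. Of 152 single differences of member probes under an alternative, 135 kept their sign, and no called difference changed sign. The cause of these shifts was not tested.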
